A study of Mus musculus with 18 samples.

Results

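Oxidative phosphorylation genes were examined in RNA sequencing libraries of mouse brain heterozygous or wild type for Chd2, a chromatin remodeler. The members were defined by gene symbol: symbols starting with Nduf, Uqcr, Cox4 to Cox8 or Atp5, and Sdha, Sdhb, Sdhc and Sdhd. It held 92 of the 24062 lines of the counts table. Complex I, which oxidises NADH, had 7 core subunits, 29 accessory subunits and 7 assembly factors. Complex II, succinate dehydrogenase, had 4 subunits, and complex III, which passes electrons to cytochrome c, had 8. Complex IV, cytochrome c oxidase, had 11 common subunits and 9 alternative isoforms or paralogues. ATP synthase had 15 subunits, and Atp5s and Atp5sl were 2 further genes named for it. The 92 genes lay on 19 chromosomes, with 3 on X (Ndufa1, Ndufb11 and Cox7b).

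All animals were C57BL/6 mice, and the groups were Chd2 heterozygotes (HET) and wild types (WT) in each of 3 tissues. Adult hippocampus was taken at postnatal day 45, and the medial ganglionic eminence (MGE), the embryonic source of many cortical interneurons, and the cortex at embryonic age E13.5. Each of the 6 groups held 3 poly(A)-selected libraries. The labels do not say whether these are separate animals, so p-values measure the spread between libraries, which may be technical. Hippocampus differed from MGE and cortex in age as well as region, and the 2 cannot be told apart.

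Oxidative phosphorylation moves electrons from NADH and succinate through complexes I to IV to oxygen while protons are pumped across the inner mitochondrial membrane, and ATP synthase uses the proton gradient to make ATP. Most subunits are encoded in the nucleus and imported, and a core few are encoded by mitochondrial DNA and were not analysed here. Several complex IV subunits and the c subunit of ATP synthase come in isoforms whose use depends on tissue, and neurons draw much of their ATP from this pathway.

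Libraries held 26841671 to 38802765 counts, of which the members took 0.953 to 1.38%. Chd2 was lower in HET than in WT libraries of each tissue without overlap, at 63.8, 66.6 and 65.6 CPM (counts scaled to library size) in HET hippocampus against 73.4, 69.8 and 78.1 CPM in WT hippocampus. The HET MGE libraries had 136 to 145 CPM against 154 to 175 CPM in WT MGE, and the HET cortex libraries 125 CPM each against 143 to 154 CPM in WT cortex. Of the tissue markers, Camk2a stood at 5298 to 6431 CPM in hippocampus and at most 57.9 CPM elsewhere, Nkx2-1 at 789 to 952 CPM in MGE and at most 1.55 CPM elsewhere, and Emx1 at 114 to 183 CPM in cortex against at most 0.722 CPM in MGE. Y-linked genes were high in all 3 HET MGE libraries and in no WT MGE library, so sex and genotype cannot be told apart in MGE. In cortex they were high in HET 1, HET 3 and WT 1, and Xist was high in the others. Each cortex group thus held libraries of both sexes and more than 1 animal. Y-linked genes were high in no hippocampus library, where Xist stood at 518 to 672 CPM. HET hippocampus and HET MGE thus differed in sex as well as in age and region, and these cannot be told apart. Cortex HET 1 and HET 2 stood apart from HET 3, and results on HET cortex are given with and without them.

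Promoters of 4 members are shown as examples picked from the tissue comparisons. Cox8a and Sdha were higher in hippocampus than in embryonic tissue, and Atp5g1 and Atp5g2, which encode the same mature protein, differed in opposite directions. The part of the motifs in these differences was not tested. The windows run from 250 bases before to 50 bases after the transcript start in RefSeq (build GRCm38.p6), 5′ to 3′ on the gene's strand, with matches to the motifs named below in capitals. All 4 genes lie on the minus strand, at chr19:7217567-7217866 (Cox8a), chr13:74350191-74350490 (Sdha), chr11:96075582-96075881 (Atp5g1) and chr15:102670998-102671297 (Atp5g2).
Cox8a: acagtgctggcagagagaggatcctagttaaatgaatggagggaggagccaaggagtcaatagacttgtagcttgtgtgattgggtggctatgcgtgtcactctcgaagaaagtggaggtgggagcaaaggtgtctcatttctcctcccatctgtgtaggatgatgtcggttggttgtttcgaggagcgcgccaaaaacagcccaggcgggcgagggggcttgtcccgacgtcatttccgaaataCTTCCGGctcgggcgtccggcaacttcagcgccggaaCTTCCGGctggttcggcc
Sdha: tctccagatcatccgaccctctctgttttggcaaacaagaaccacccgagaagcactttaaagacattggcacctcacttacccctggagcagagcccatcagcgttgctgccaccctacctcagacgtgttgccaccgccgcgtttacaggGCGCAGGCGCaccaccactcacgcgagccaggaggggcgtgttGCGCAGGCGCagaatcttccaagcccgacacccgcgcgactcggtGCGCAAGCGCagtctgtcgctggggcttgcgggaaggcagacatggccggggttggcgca
Atp5g1: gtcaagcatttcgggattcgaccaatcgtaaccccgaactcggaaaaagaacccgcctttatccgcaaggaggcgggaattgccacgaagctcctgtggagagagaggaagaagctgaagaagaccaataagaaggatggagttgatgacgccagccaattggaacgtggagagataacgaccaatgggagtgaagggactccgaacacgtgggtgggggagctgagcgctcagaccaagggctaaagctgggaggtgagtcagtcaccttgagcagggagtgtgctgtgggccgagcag
Atp5g2: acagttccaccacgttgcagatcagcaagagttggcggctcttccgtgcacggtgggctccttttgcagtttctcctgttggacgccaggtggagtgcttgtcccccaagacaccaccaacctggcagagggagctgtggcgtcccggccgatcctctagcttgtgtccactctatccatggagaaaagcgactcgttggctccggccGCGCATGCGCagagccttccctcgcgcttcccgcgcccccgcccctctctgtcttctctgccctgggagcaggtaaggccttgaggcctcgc
Searched on both strands were the consensus of nuclear respiratory factor 1 (a regulator of nuclear genes for mitochondria), CCGGAAG (ETS family factors such as GABPA) and GCCATNTTG (YY1). Cox8a held CCGGAAG at 2 places, read as CTTCCGG on the strand shown. Sdha held the nuclear respiratory factor 1 consensus at 3 places, Atp5g2 held it at 1, and Atp5g1 held no match. RefSeq windows were at hand for 76 of the 92 members, 3 matched by an older symbol, giving 82 windows. The nuclear respiratory factor 1 consensus stood in 24.4% of these windows, in 8.41% of windows of the genes tested in all 18 libraries and in 4.6% of all windows of the table. The shares for CCGGAAG were 20.7%, 14.6% and 8.86%, and those for GCCATNTTG 15.9%, 3.45% and 2.51%. At least 1 of the 3 motifs was found in 53.7% of member windows, 23.7% of windows of tested genes and 14.5% of all windows. A match describes the letters of the window and does not show a bound factor.

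Levels were compared between genes in TPM, counts divided by the exon length of each gene and scaled to the same total in each library. Summed over all 92 members, the level was 26674 ± 704 TPM in HET and 25529 ± 666 TPM in WT hippocampus (SD, n = 3 libraries for each group here and below). It was 22370.0 ± 906 TPM in HET and 22087 ± 891 TPM in WT MGE, and 24418 ± 2902 TPM in HET and 26172 ± 613 TPM in WT cortex. In TPM the MGE groups had the lowest means, and the HET cortex libraries spread widely. The order depended on the scale: in CPM, without division by length, the sums were 10747 ± 213 in HET and 10391 ± 309.7 in WT hippocampus, 10309 ± 764 in HET and 10087 ± 476 in WT MGE, and 11484 ± 1565 in HET and 12083 ± 74.0 in WT cortex. On that scale WT cortex lay above both hippocampus groups without overlap, and hippocampus and MGE libraries overlapped. In these bulk samples, fewer cells of a type and less RNA per cell cannot be told apart.

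The complexes differed in their order of groups. The common subunits of complex IV summed to 8900.3, 9045 and 8683 TPM in HET and 8842, 8364 and 8495 TPM in WT hippocampus, above all embryonic libraries on the TPM scale, which held 5777, 6028 and 5914 TPM in HET MGE and 5986, 5288 and 5599.9 TPM in WT MGE. The HET cortex libraries had 6080.4, 5811 and 7601 TPM and the WT cortex libraries 7243, 6689.8 and 6785 TPM. Cox8a alone held 2363 TPM of the mean sum of 8567 TPM in WT hippocampus. The median common subunit was at 466 TPM in WT hippocampus, 557 TPM in WT cortex and 421 TPM in WT MGE. In HET this median was 502 TPM in hippocampus, 494 TPM in cortex and 438 TPM in MGE. In CPM the same subunits overlapped between hippocampus and cortex, with 2219.5, 2220.1 and 2178 CPM in HET and 2189.5, 2067 and 2154 CPM in WT hippocampus against 1826, 1741 and 2437 CPM in HET and 2193, 2079 and 2101 CPM in WT cortex. ATP synthase subunits ran the other way between hippocampus and WT cortex, at 5414, 5835 and 5539 TPM in HET and 5606, 5282 and 5397 TPM in WT hippocampus against 6599, 6426 and 6561 TPM in WT cortex, and were lower in hippocampus in CPM too (3694 ± 107 in WT hippocampus against 4664 ± 31.6 in WT cortex). The 7 core subunits of complex I, which carry its redox centres, summed to 1478 ± 66.6 TPM in HET and 1412 ± 33.1 TPM in WT hippocampus. They reached 1151 ± 31.5 TPM in WT MGE and 1293 ± 31.4 TPM in WT cortex, whereas in CPM WT hippocampus, at 803 ± 18.9, was not above WT cortex, at 821 ± 2.95. Its 29 accessory subunits were at 5734 ± 109.6 TPM in WT hippocampus, 5274 ± 205 TPM in WT MGE and 6629 ± 171 TPM in WT cortex. Complex I assembly factors were far lower than the subunits, at 224 to 302 TPM for all 7 together in any library.

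**Figure D1:**
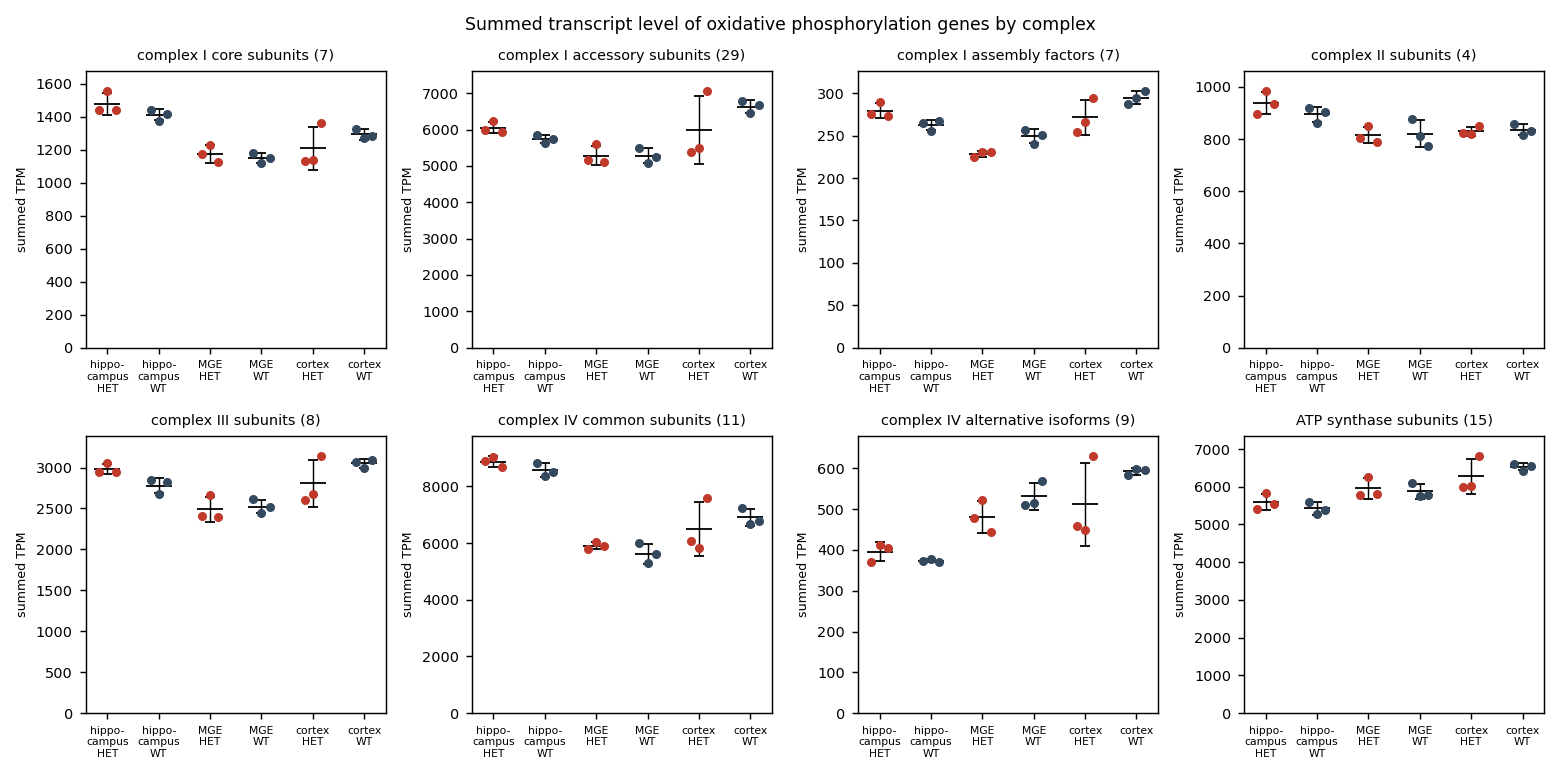
Summed TPM of the members of each complex in the 18 libraries (points; red HET, dark WT), with the mean and SD of 3 libraries as bars and each vertical axis starting at 0. The sum of common complex IV subunits is highest in the 6 hippocampus libraries on this scale, with Cox8a the largest part there (in CPM hippocampus and cortex overlap). Cox7a2l makes up most of the panel of alternative isoforms. In cortex HET the third library lies above the other 2 in most panels.

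Between WT tissues of different age, members moved in both directions rather than as a block. Of 88 members tested in WT hippocampus against WT cortex, 22 were higher and 47 lower in hippocampus, where 82.0% of all 15448 genes tested were called, 41.1% higher and 40.9% lower (edgeR quasi-likelihood test, Benjamini-Hochberg adjusted p under 0.05). Against WT MGE, 31 were higher and 31 lower of 88 (83.7% of all genes called, 41.9% higher and 41.7% lower). In both comparisons the members' share of calls, 78.4% and 70.5%, was below that of all genes. The median log2 fold change of the members was -0.27 against cortex and 0.03 against MGE, and that of all genes -0.00 in each. Of 478 other protein-coding genes with longest transcripts of 1000 bases or less, 56.7% were lower against cortex, with a median of -0.72. The 38 members of that length had 55.3% lower and a median of -0.39. Over 2500 bases, 39.2% of other genes (median 0.09) and 42.9% of members (median -0.16) were lower. Against MGE, 50% of other short genes (median -0.37) and 34.2% of short members (median 0.06) were lower. The part of transcript length was not tested. HET libraries, which share none with WT, gave 23 higher and 30 lower of 88 in hippocampus against cortex (78.8% of all genes called, 38.8% higher and 39.9% lower) and 33 higher and 24 lower of 88 against MGE (83.7%, with 41.9% higher and 41.8% lower). Of the 53 members called in HET hippocampus against HET cortex, 49 were called in the same direction in WT (92.5% of the HET and 71.0% of the WT calls), and none in the opposite one. Against MGE, 51 were shared in direction (89.5% of the HET and 82.3% of the WT calls), again with none opposite.

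**Figure D2:**
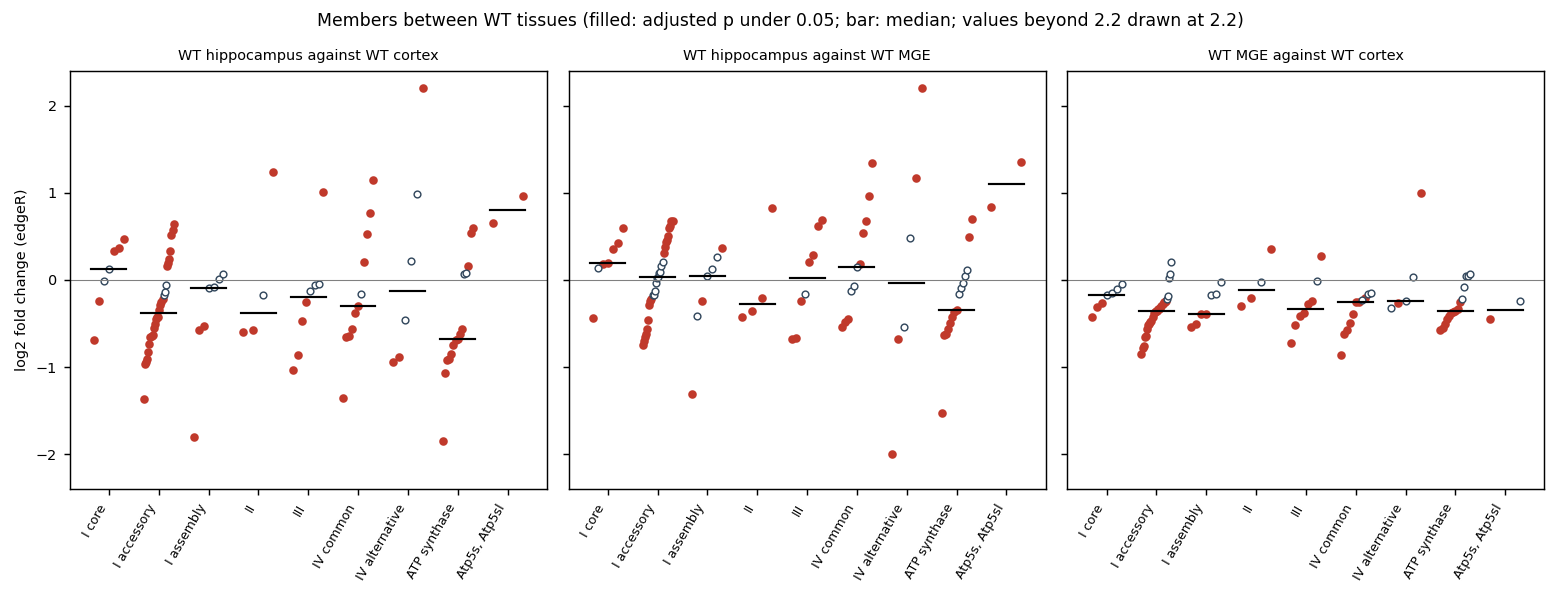
Log2 fold change of each tested member between WT tissues, by complex (left to right: hippocampus against cortex, hippocampus against MGE, MGE against cortex); filled points have an adjusted p under 0.05, bars are medians, and Cox6a2 is drawn at the limit of 2.2. Within complexes I to IV and ATP synthase members lie on both sides of 0 in the hippocampus comparisons, while 77 of 87 lie below 0 in MGE against cortex.

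Complex IV held members that rose in hippocampus and members that fell. Cox8a, a small structural subunit, had 367, 363 and 351 CPM in HET and 366, 354 and 354 CPM in WT hippocampus, against 164, 122 and 137 CPM in WT MGE and 164, 175 and 167 CPM in WT cortex. In WT it rose against both, by a log2 fold change of 1.34 ± 0.10 SE against MGE (adjusted p = 2.30e-07) and 1.15 ± 0.06 against cortex (adjusted p = 3.57e-08). At 2394 TPM in HET and 2363 TPM in WT hippocampus Cox8a was the most abundant member there. Cox6a1, the isoform of subunit VIa found in most tissues, had 331, 319 and 331 CPM in WT hippocampus against 183, 148 and 171 CPM in WT MGE and 199, 207 and 196 CPM in WT cortex. It rose by a log2 fold change of 0.96 ± 0.09 against MGE and 0.76 ± 0.06 against cortex (adjusted p = 1.10e-06 and 6.48e-07). Cox4i1, the main isoform of the regulatory subunit IV, rose by a log2 fold change of 0.68 ± 0.09 and 0.52 ± 0.07 in the same comparisons (adjusted p = 1.75e-05 and 2.87e-05).

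Other complex IV subunits fell in the same libraries. Cox6b1, a subunit facing the intermembrane space, had 152, 137 and 143 CPM in WT hippocampus against 240.5, 218 and 249 CPM in WT cortex (log2 fold change -0.65 ± 0.07 SE, adjusted p = 1.04e-05). Its groups overlapped between WT hippocampus and WT MGE (167, 140.4 and 166 CPM). Cox7a2l, also known as a factor in supercomplex assembly, had 119.8, 119 and 124 CPM in WT hippocampus, against 188, 184 and 206 CPM in WT MGE and 223, 239 and 237 CPM in WT cortex. It fell, with a log2 fold change of -0.67 ± 0.07 against MGE and -0.89 ± 0.06 against cortex (adjusted p = 5.36e-06 and 2.14e-07). In TPM the summed Cox7a family stayed split between Cox7a2 (49.3% ± 0.839 of the family in WT hippocampus, 45.7% ± 3.38 in WT MGE and 44.0% ± 1.66 in WT cortex) and Cox7a2l, with the muscle isoform Cox7a1 at 0.842% ± 0.142 in WT hippocampus.

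Apart from Cox7a2l, alternative isoforms of complex IV were scarce beside the common ones. Cox7a2l held 334 of the 374 TPM summed over the 9 alternative isoforms and paralogues in WT hippocampus. Cox6a2, the isoform of subunit VIa known from heart and skeletal muscle, had 40, 60 and 42 counts in HET and 77, 90 and 43 counts in WT hippocampus. It had no count in the 3 WT cortex or the 6 MGE libraries, and 2 counts in the HET cortex libraries together. With a floor of 3 counts over the group, its CPM was at least 76.9-fold higher in WT hippocampus than in WT MGE and at least 70.0-fold higher than in WT cortex. In HET it was at least 59.5-fold higher in hippocampus than in MGE, and the ratio to HET cortex was 79.2 (95% exact interval 21.5 to 660.4, counting error only). Even so, Cox6a2 made up only 0.509% ± 0.130 of the Cox6a TPM in HET and 0.724% ± 0.270 in WT hippocampus. Of 7 muscle genes, Tnnc2 was at 0 in 5 of the 6 hippocampus libraries and the 7 together summed to 14.8 to 20.8 CPM there against 0.678 to 6.03 CPM in embryonic libraries. Of 6 genes of parvalbumin interneurons, which also express Cox6a2 in mouse cortex, all had counts in each hippocampus library, and they summed to 829 to 926 CPM there against 17.0 to 578 CPM in embryonic libraries. Pvalb itself stood at 26.5, 27.9 and 28.5 CPM in HET and 29.9, 25.8 and 26.3 CPM in WT hippocampus against at most 0.555 CPM elsewhere. The part of either cell type in the Cox6a2 counts was not tested.

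Cox6b2, an isoform best known from testis, was highest in MGE, with 1.54, 1.17 and 1.13 CPM in WT hippocampus, 5.05, 5.22 and 4.99 CPM in WT MGE and 3.71, 2.00 and 1.95 CPM in WT cortex. It fell in hippocampus, with a log2 fold change of -1.99 ± 0.22 against MGE (adjusted p = 5.78e-06), and in MGE against cortex it was higher by 0.99 ± 0.28 (adjusted p = 0.0125). Its share of the Cox6b TPM was 2.47% ± 0.201 in HET and 2.03% ± 0.250 in WT MGE. Cox4i2, the isoform tied to low oxygen in lung and vessels, stayed at 0.347 to 1.01% of the Cox4 TPM in every library. Ndufa4l2, a paralogue of the complex IV subunit Ndufa4, made up 0.822 to 3.15% of that pair.

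**Figure D3:**
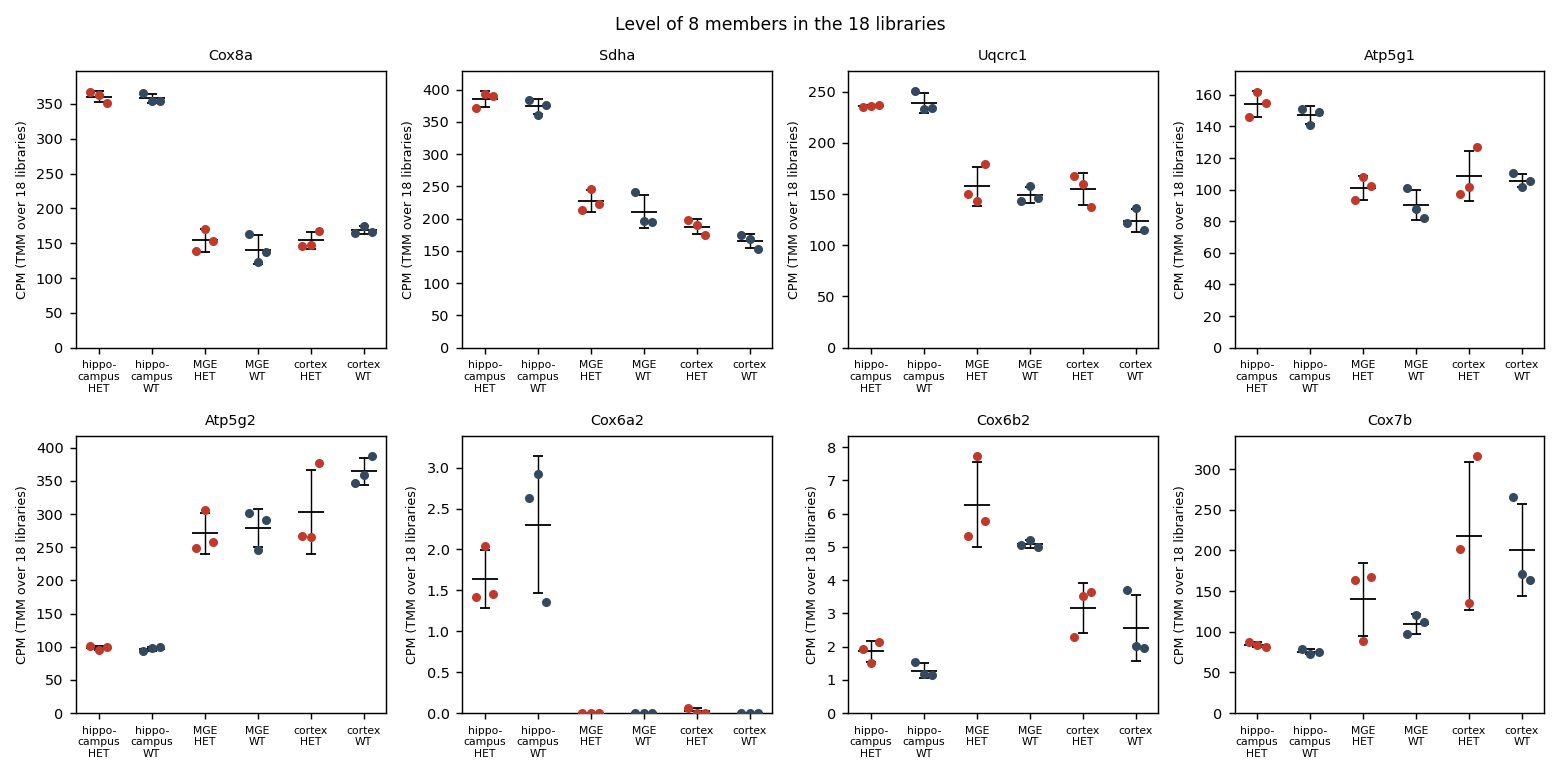
CPM of 8 members in the 18 libraries (points; red HET, dark WT), with the mean and SD of 3 libraries per group and axes starting at 0. Cox8a, Sdha, Uqcrc1 and Atp5g1 are highest in hippocampus, Atp5g2 is lowest there, Cox6a2 is near 0 in all embryonic libraries, and Cox7b spreads widely within embryonic groups.

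The 4 subunits of complex II did not move together. Sdha, the flavoprotein that oxidises succinate, had 385, 361 and 377 CPM in WT hippocampus, against 241, 197 and 195 CPM in WT MGE and 175, 169 and 154 CPM in WT cortex. It rose by a log2 fold change of 0.83 ± 0.09 against MGE and 1.24 ± 0.07 against cortex (adjusted p = 7.24e-06 and 4.58e-08). The iron-sulfur subunit Sdhb fell, with a log2 fold change of -0.42 ± 0.08 and -0.58 ± 0.07 (adjusted p = 0.000510 and 1.41e-05), and the membrane anchor Sdhd fell too, at -0.35 ± 0.08 and -0.59 ± 0.07 (adjusted p = 0.00231 and 1.31e-05). Sdhc, the other anchor, fell against MGE (log2 fold change -0.21 ± 0.07 SE, adjusted p = 0.0144) and did not pass against cortex (-0.18, adjusted p = 0.0560). Sdha made up 40.9% ± 0.364 of the complex II TPM in HET and 41.4% ± 0.531 in WT hippocampus, against 25.5% ± 0.537 in HET and 23.7% ± 1.12 in WT MGE and 19.96% ± 2.38 in HET and 17.3% ± 1.14 in WT cortex. In every hippocampus library this share lay above that of every embryonic one. HET gave the same signs, with Sdha 0.77 ± 0.09 against MGE and 1.06 ± 0.09 against cortex (adjusted p = 1.80e-05 and 1.36e-05).

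In complex III the core protein Uqcrc1 had 250.4, 233 and 234 CPM in WT hippocampus, against 143, 157 and 146 CPM in WT MGE and 122, 136 and 115 CPM in WT cortex. Its log2 fold change against cortex was 1.01 ± 0.08 (adjusted p = 6.76e-07). Uqcrh, the hinge protein that holds cytochrome c1, had 82.9, 81.9 and 84.5 CPM in WT hippocampus, against 133, 128 and 137 CPM in WT MGE and 183, 171 and 179 CPM in WT cortex. It fell, with a log2 fold change of -0.67 ± 0.07 against MGE and -1.04 ± 0.06 against cortex (adjusted p = 2.73e-06 and 4.43e-08). Uqcrb, another small subunit, fell against MGE (log2 fold change -0.66 ± 0.09 SE, adjusted p = 4.70e-05), with 25.5% of its 50-base stretches also found in other genes.

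Complex I subunits moved both ways. Of its 7 core subunits, 5 were higher and 1 lower in WT hippocampus than in WT MGE, and 3 were higher and 2 lower than in WT cortex. Of 28 accessory subunits tested, 9 were higher and 9 lower against MGE, and 7 higher and 18 lower against cortex. Of all genes, 83.7% were called against MGE (41.9% higher, 41.7% lower) and 82.0% against cortex (41.1% higher, 40.9% lower). Ndufa8, an accessory subunit of the intermembrane space, was higher than in cortex, with 95.4, 91.5 and 97.8 CPM in WT hippocampus against 65.7, 64.3 and 60.6 CPM in WT cortex (log2 fold change 0.64 ± 0.06 SE, adjusted p = 4.20e-06). Ndufc2, a membrane-arm subunit, was the reverse, with 65.2, 66.1 and 69.8 CPM in WT hippocampus against 181, 180.2 and 180.0 CPM in WT cortex (log2 fold change -1.37 ± 0.06 SE, adjusted p = 5.26e-09). Ndufs4, whose loss causes a Leigh-like disease in mice, and Ndufa7 fell as well against cortex, with log2 fold changes for Ndufa7 and Ndufs4 of -0.97 ± 0.07 and -0.94 ± 0.07 (adjusted p = 2.39e-07 and 3.07e-07). Among assembly factors, Ndufaf2 was lower in hippocampus, at 10.4, 9.48 and 7.92 CPM in WT hippocampus, 22.0, 24.9 and 22.2 CPM in WT MGE and 32.5, 34.6 and 33.8 CPM in WT cortex. It fell, with a log2 fold change of -1.31 ± 0.13 and -1.80 ± 0.12 (adjusted p = 2.25e-06 and 1.80e-07), but 64.1% of its 50-base stretches also occur in the gene model B230220B15Rik, so its counts are uncertain. Atp5sl, one of the genes only named for ATP synthase, also called Dmac2 and known from work on human cells as a factor for building the membrane arm of complex I, had 41.7, 38.5 and 37.0 CPM in WT hippocampus, against 13.4, 16.1 and 16.3 CPM in WT MGE and 18.9, 21.6 and 22.4 CPM in WT cortex. It rose by a log2 fold change of 1.36 ± 0.11 and 0.96 ± 0.10 (adjusted p = 2.62e-07 and 5.22e-06).

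In ATP synthase, 2 genes of 1 family moved in opposite directions. The c subunit forms the proton-carrying ring, and its 3 genes Atp5g1, Atp5g2 and Atp5g3 encode the same mature protein behind different import signals. Atp5g2 had 93.9, 97.8 and 99.0 CPM in WT hippocampus, against 301, 247 and 291 CPM in WT MGE and 347, 359 and 387 CPM in WT cortex. It fell, with a log2 fold change of -1.53 ± 0.09 and -1.85 ± 0.07 (adjusted p = 1.86e-08 and 1.54e-09). Atp5g1 rose in the same comparisons, with 151, 141 and 149 CPM in WT hippocampus, against 101, 88.0 and 82.2 CPM in WT MGE and 110.3, 102 and 105 CPM in WT cortex, by 0.70 ± 0.09 and 0.54 ± 0.06 (adjusted p = 1.66e-05 and 1.44e-05). Atp5g3 did not pass in either, at 0.12 ± 0.08 and 0.08 ± 0.07 (adjusted p = 0.182 and 0.256). Per length, Atp5g2 made up 33.0% ± 1.48 of the TPM of the 3 genes in HET and 33.3% ± 1.26 in WT hippocampus, against 60.3% ± 1.18 in HET and 63.0% ± 2.38 in WT MGE and 62.0% ± 3.74 in HET and 67.2% ± 1.99 in WT cortex. The share of Atp5g1 rests on an annotated exon length of 4912 bases, and 38.3% of the 50-base stretches of Atp5g2 occur in other genes. Atp5o, a stalk subunit, fell, with a log2 fold change of -1.07 ± 0.08 against cortex (adjusted p = 5.67e-07), with 41.6% of its stretches shared with other genes.

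The embryonic tissues differed from each other mainly in one direction. In WT MGE against WT cortex, 3 members were higher and 58 lower of 87 tested, where 49.4% of all genes were called, 24.9% higher and 24.5% lower. The median log2 fold change of the members was -0.31, against 0.00 for all 14739 genes. Of 28 accessory subunits of complex I tested, 23 were lower, as were 10 of 15 ATP synthase subunits, 8 of 11 common complex IV subunits and 6 of 8 complex III subunits. Ndufc2 had 98.3, 104 and 95.4 CPM in WT MGE against 181, 180.2 and 180.0 CPM in WT cortex (log2 fold change -0.85 ± 0.07 SE, adjusted p = 4.41e-06). Ndufb4, an accessory subunit, had 49.2, 41.3 and 47.9 CPM in WT MGE against 76.9, 76.5 and 83.0 CPM in WT cortex (log2 fold change -0.76 ± 0.08 SE, adjusted p = 3.84e-05). Other genes share 18.3% of the 50-base stretches of Ndufb4. Uqcr11, the smallest complex III subunit, had 68.5, 59.0 and 65.2 CPM in WT MGE against 103, 110.0 and 109 CPM in WT cortex (log2 fold change -0.73 ± 0.07 SE, adjusted p = 2.14e-05). The 3 higher genes were Cox6b2, Sdha (log2 fold change 0.36 ± 0.09 SE, adjusted p = 0.00819) and Uqcrc1 (log2 fold change 0.27 ± 0.08 SE, adjusted p = 0.0161). Of 445 other protein-coding genes with transcripts of 1000 bases or less, 48.3% were also lower in WT MGE, with a median of -0.35, and the 37 members of that length had a median of -0.36. Of the 9921 other genes over 2500 bases, 21.9% were lower, against 7 of 14 members. Length here is that of the longest annotated transcript of a gene, which may not be the one expressed. Cell cycle genes were higher in WT MGE than in WT cortex, 15 of 16 passing. All 7 genes of meninges and mesenchyme were lower in WT MGE, with sums of 25.9, 36.6 and 27.7 CPM in WT MGE against 627, 391 and 386 CPM in WT cortex and none at 0. Of 7 choroid plexus genes 5 were tested and 2 were lower, with sums of 41.4, 31.4 and 29.3 CPM in WT MGE against 1568, 5.94 and 1209.6 CPM in WT cortex, where the second library was low, and with Folr1 at 0 in WT MGE 3. Meninges and mesenchyme genes summed to 30.2 to 41.3 CPM in WT hippocampus, so they differ from cortex there as well. The part of transcript length, dividing cells, meninges or choroid plexus in the members' differences was not tested.

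In HET MGE against HET cortex, 1 member was higher and 4 lower of 87, where 25.9% of all genes were called, 11.4% higher and 14.6% lower, and the members' median was -0.17. The lower ones were Ndufc2 (log2 fold change -0.83 ± 0.16 SE, adjusted p = 0.00669), Ndufb4 (log2 fold change -0.68 ± 0.20 SE, adjusted p = 0.0386) and the assembly factors Ndufaf1 (log2 fold change -0.86 ± 0.15 SE, adjusted p = 0.00395) and Ndufaf4 (log2 fold change -0.49 ± 0.11 SE, adjusted p = 0.0132), and Cox6b2 was higher (log2 fold change 0.98 ± 0.26 SE, adjusted p = 0.0242). All 5 were called in the same direction in WT, where they were 8.2% of the 61 members called. The count depends on single libraries: it was 2 or 3 in all without any one HET MGE library, without cortex HET 3 it was 3 higher and 5 lower (31.2% of all genes called, 16.5% lower), and without cortex HET 1 and HET 2 it was 36, all lower (30.6% of all genes called, 15.7% lower), with a median of -0.47. In the last fit 32.7% of 513 other short genes were lower. The same choice moved hippocampus against cortex in HET to 36 higher and 30 lower of 88 without HET 3 (84% of all genes called, 41.3% lower), and to 15 higher and 50 lower of 89 without HET 1 and HET 2 (77.5% of all genes called, 39% lower). In both, the share of members called was below that of all genes.

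Between genotypes, no member passed the threshold in any tissue. In hippocampus 0 of 88 members were called, against 1.07% of 15283 genes, in MGE 0 of 87 against 0.0479% of 14624 genes, and in cortex 0 of 87 against 0.0% of 14757 genes. DESeq2 and limma-voom also called none in each tissue. An unadjusted p under 0.05 was found for 9 members in hippocampus (15.6% of all genes), 3 in MGE (4.51%) and 3 in cortex (7.89%).

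In hippocampus most members lay slightly above 0. Of 88 members, 79 lay above 0, with a median log2 fold change of 0.07 beside 0.00 for all genes, and 20 were higher in HET without overlap, where 9.11% of all genes were. None was lower without overlap, where 11.7% of all genes were. All 15 ATP synthase subunits, all 7 complex I core subunits and 27 of 28 accessory subunits lay above 0. Ndufb4 had 53.5, 56.8 and 57.7 CPM in HET against 50.5, 45.5 and 50.5 CPM in WT hippocampus (log2 fold change 0.20 ± 0.06 SE, adjusted p = 0.167). Uqcrh had 92.2, 93.4 and 90.5 CPM in HET against 82.9, 81.9 and 84.5 CPM in WT hippocampus (log2 fold change 0.15 ± 0.05 SE, adjusted p = 0.197). Cox7b, a small complex IV subunit, had 86.9, 83.8 and 81.4 CPM in HET against 78.5, 72.7 and 75.2 CPM in WT hippocampus (log2 fold change 0.16 ± 0.06 SE, adjusted p = 0.217). These HET values lie above the WT values, by less than the test could separate over all genes. In the same libraries 72.9% of 461 other protein-coding genes of 1000 bases or less lay above 0, with a median of 0.08, as did 46.3% of 10208 genes over 2500 bases. Of the 14 members over 2500 bases, 13 lay above 0. These 14 were placed by their longest annotated transcript, which may not be the one expressed, and include Atp5l (6310 bases) and Ndufb7 (4435 bases).

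The members with the lowest p among those below 0 were Cox6a2 (-0.48, adjusted p = 0.488), Ndufa4l2 (-0.38, adjusted p = 0.565) and Cox4i2 (-0.40, adjusted p = 0.574), all alternative isoforms at 2.92 CPM or less. Ndufa4l2 had 1.10, 1.64 and 1.35 CPM in HET against 1.61, 2.27 and 1.45 CPM in WT hippocampus, and its groups overlapped. Genes of pericytes and endothelial cells, which line small vessels, had lower sums in the same HET libraries. Of 9 pericyte genes 7 lay below 0 and 1 passed, with sums of 147, 160.3 and 152 CPM in HET against 188, 178 and 179 CPM in WT hippocampus. Of 7 endothelial genes 6 lay below 0 and 1 passed, with sums of 95.2, 94.8 and 84.3 CPM in HET against 131, 126 and 126 CPM in WT hippocampus. No gene of either list was at 0 there, and their part in the 3 isoforms' values was not tested.

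In MGE the members were evenly split, 43 above and 44 below 0, with a median of -0.00 beside 0.01 for all genes. Without overlap, 5 were higher and 4 lower in HET, where 5.13% of all genes were higher and 5.12% lower without overlap. Ndufaf1, a complex I assembly factor, had 8.88, 11.1 and 9.46 CPM in HET against 12.5, 12.7 and 11.4 CPM in WT MGE (log2 fold change -0.33 ± 0.14 SE, adjusted p = 0.980). Ndufaf4, another, had 28.7, 29.0 and 26.6 CPM in HET against 32.1, 32.4 and 32.5 CPM in WT MGE, and the core subunit Ndufv2 105, 122 and 103 CPM in HET against 127, 126 and 125 CPM in WT MGE (log2 fold changes -0.22 and -0.21, adjusted p = 0.980 each). Their groups do not overlap. Above 0 the lowest p were those of Ndufa8 (0.23), Cox6a1 (0.18) and Cox4i1 (0.16), each with an adjusted p of 0.980.

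**Figure D4:**
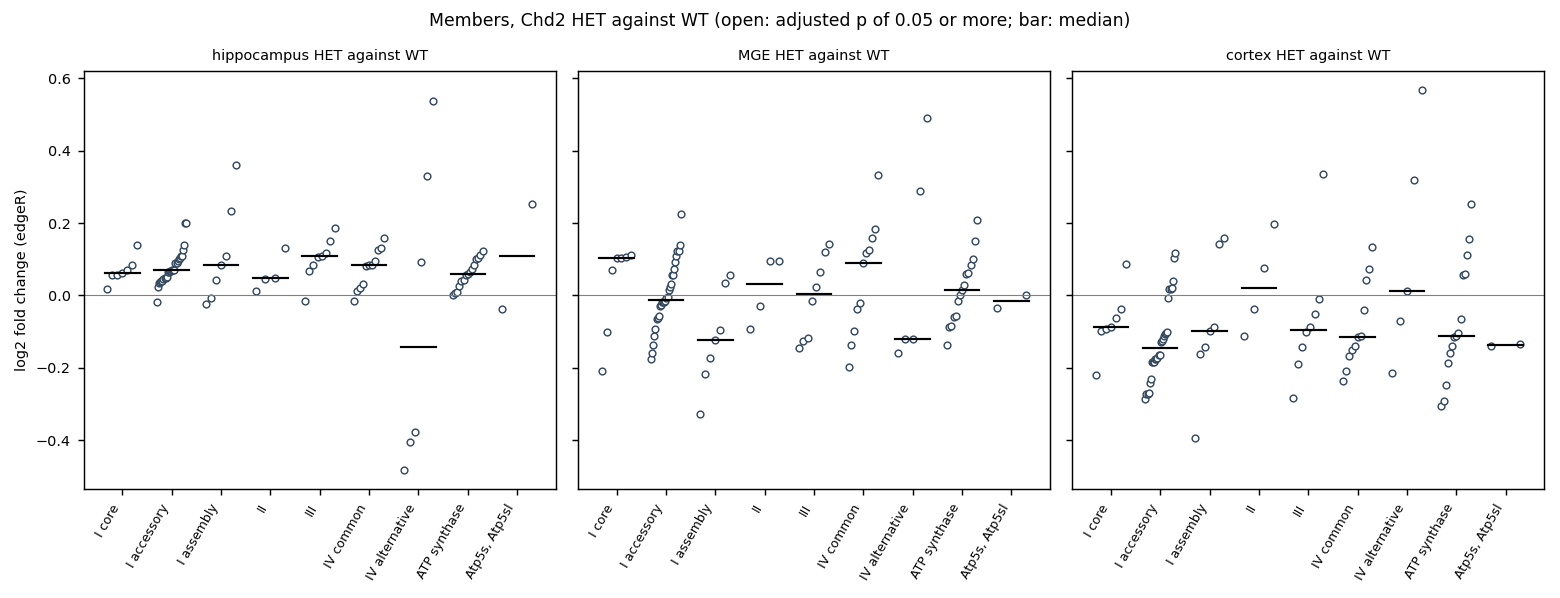
Log2 fold change of each tested member in HET against WT by complex, in hippocampus, MGE and cortex (left to right); no point has an adjusted p under 0.05, and bars are medians. Most hippocampus points lie slightly above 0 (79 of 88), MGE points lie on both sides, and 64 of 87 cortex points lie below 0.

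In cortex 23 members lay above and 64 below 0, with a median of -0.11 beside 0.01 for all genes, and this rested on which HET libraries were used. Averaged over the tested members, the log2 deviation from the mean of the 6 cortex libraries was -0.19, -0.18 and 0.21 in HET 1, HET 2 and HET 3, against 0.05, 0.03 and 0.07 in the WT libraries. HET 1 and HET 2 were thus below all WT libraries and HET 3 above them. Without HET 3, 47 members were lower and 3 higher (13% of all genes were lower and 30.7% called). With HET 3 as the one HET library, 78 of 87 members lay above 0, the median was 0.15, and none was called. The 3 members called higher without HET 3 were Uqcrc1, the ATP synthase subunit Atp5d and Sdha, and these did not follow the others: Uqcrc1 had 167, 159.9 and 137 CPM in HET against 122, 136 and 115 CPM in WT cortex (log2 fold change 0.34 ± 0.11 SE, adjusted p = 0.578). Atp5d had 206, 190.1 and 175 CPM in HET against 165, 161 and 159 CPM in WT cortex (log2 fold change 0.25 ± 0.09 SE, adjusted p = 0.578). Sdha had 197, 191 and 175 CPM in HET against 175, 169 and 154 CPM in WT cortex (log2 fold change 0.20 ± 0.09 SE, adjusted p = 0.578). In CPM the 3 HET libraries lie above the 3 WT libraries in each of these, but HET 3 by little in Sdha and Uqcrc1. In TPM the Sdha groups overlap, with HET 3 below WT 1. With HET 3 as the one HET library the log2 fold changes were 0.15 for Uqcrc1, 0.12 for Atp5d and 0.08 for Sdha. Without overlap, 7 members were higher and 1 lower in HET, where 4.69% of all genes were higher and 6.29% lower without overlap. The lower one was Uqcr11, with 78.5, 83.5 and 98.8 CPM in HET against 103, 110.0 and 109 CPM in WT cortex (log2 fold change -0.28 ± 0.10 SE, adjusted p = 0.578). Ndufaf3 and Atp5k followed HET 1 and HET 2: Ndufaf3 had 19.9, 20.98 and 31.6 CPM in HET against 33.1, 31.9 and 31.3 CPM in WT cortex, and Atp5k 49.3, 55.5 and 75.5 CPM in HET against 75.2, 75.3 and 75.2 CPM in WT cortex.

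Other short genes and young neuron genes moved with the members across these cortex libraries, and cell cycle genes moved the other way. Other protein-coding genes of 1000 bases or less (534 genes) had median deviations of -0.23, -0.17 and 0.20 in HET 1, HET 2 and HET 3, against 0.07, 0.05 and 0.10 in WT. The 7 young neuron genes averaged -0.41, -0.43 and 0.22 in the HET libraries against 0.11, 0.16 and 0.35 in WT, and the 16 cell cycle genes 0.38, 0.45 and -0.26 against -0.28, -0.11 and -0.19 in WT. Summed levels of the young neuron genes were 2185, 2119 and 3377 CPM in HET against 3070.3, 3166 and 3535 CPM in WT cortex, with none at 0. Meninges and mesenchyme genes summed to 557, 797 and 720.5 CPM in HET against 627, 391 and 386 CPM in WT cortex, and choroid plexus genes to 13.7, 259 and 444 CPM in HET against 1568, 5.94 and 1209.6 CPM in WT cortex. Without HET 3, 31.2% of 465 short genes other than members were lower. The part of transcript length or of any of these cell types in the members' cortex values was not tested.

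**Figure D5:**
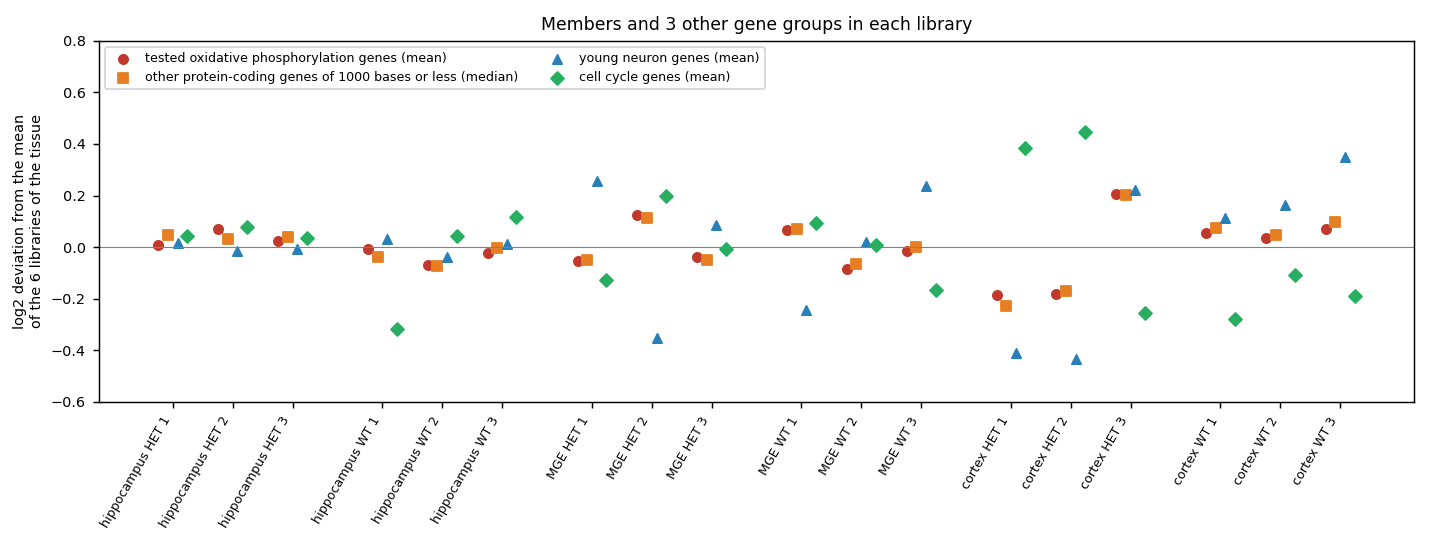
Log2 deviation of each library from the mean of the 6 libraries of its tissue, for the tested members (mean), other protein-coding genes with transcripts of 1000 bases or less (median), 7 young neuron genes and 16 cell cycle genes (means). In cortex HET 1 and HET 2 lie below HET 3 for the members and the other short genes, and above HET 3 for cell cycle genes.

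The genotype difference itself was compared between tissues in 1 fit of all 18 libraries. In MGE this difference is also one of sex. No member was called for MGE against cortex (0.0% of 16125 genes), MGE against hippocampus (0.0062%) or cortex against hippocampus (0.0124%), and DESeq2 and limma-voom also called none. Unadjusted p under 0.05 was found for 4, 1 and 9 of 88 members in these 3 contrasts (7.01%, 7.36% and 12.8% of all genes). Without cortex HET 3 the counts were 15 for MGE against cortex, all more positive in MGE (6.4% of 16319 genes called), and 44 for cortex against hippocampus, of which 43 were more negative in cortex (17.1% of all genes called, 8.95% more negative). Of 549 other short genes, 24.2% were called more negative in that second contrast. The lowest p for MGE against cortex belonged to Ndufaf1 (difference of log2 fold changes -0.48 ± 0.15 SE, adjusted p = 0.710) and for cortex against hippocampus to Ndufaf3 (-0.51 ± 0.19, adjusted p = 0.338).

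Cox7b, on X, varied widely within embryonic groups. It had 164, 88.0 and 168 CPM in HET against 96.9, 121 and 112 CPM in WT MGE, and 202, 135 and 316 CPM in HET against 266, 171 and 164 CPM in WT cortex. In MGE the high libraries HET 1 and HET 3 and the low HET 2 all carried Y-linked reads (212 to 259.6 CPM). In cortex the 3 libraries with Y-linked reads, HET 1, HET 3 and WT 1, were the 3 highest for Cox7b. Hippocampus, where all libraries express Xist, held 72.7 to 86.9 CPM. When Y-linked expression entered the fit, the cortex log2 fold change of Cox7b was -0.17, and otherwise 0.13 (adjusted p = 0.872). The 2 other X-linked members, Ndufa1 and Ndufb11, had 27.9, 26.2 and 44.3 CPM and 113, 105 and 142 CPM in HET cortex against 41.4, 32.8 and 33.5 CPM and 136, 131 and 146 CPM in WT cortex.

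Members left untested were few. Ndufs5, an accessory subunit of complex I, was listed at 0 in 17 libraries and had 1 count in 1 HET hippocampus library. Of its 50-base stretches, 21.7% occur in the gene model BC002163, which had 0 to 14 counts in a library, and the cause of its absence was not tested. Cox8c had no count, Cox7b2 at most 4 and Cox8b at most 11 counts in a library, and Cox6a2 was left untested in each comparison of 2 groups that held no hippocampus library.

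Neighbouring pathways were counted in the same way. In WT hippocampus against WT cortex, where 82.0% of all genes were called (41.1% higher, 40.9% lower), 11 glycolysis genes were higher and 3 lower of 16 tested, with a median of 1.11. They included the neuronal enolase Eno2 (log2 fold change 5.83 ± 0.11 SE, adjusted p = 2.72e-11), hexokinase Hk1 (3.41 ± 0.07, adjusted p = 6.08e-11) and Aldoa (3.23 ± 0.08, adjusted p = 1.32e-10). Of 19 genes of the citric acid cycle and pyruvate dehydrogenase, 10 were higher and 7 lower. Ogdh and Dlat, subunits of the 2-oxoglutarate and pyruvate dehydrogenases, were higher by 1.96 ± 0.07 and 1.60 ± 0.08, and the NADP-dependent Idh2 was lower (log2 fold change -2.18 ± 0.08 SE, adjusted p = 1.33e-09). Of 33 assembly factors outside the set, 9 were higher and 12 lower, with Ttc19, needed for complex III, at 1.91 ± 0.07 and Cox16, for complex IV, at -1.79 ± 0.10. All 16 regulators of mitochondrial biogenesis passed, 8 in each direction, as did most genes tested. The coactivator Ppargc1a was higher by 2.13 ± 0.12 and the nuclear receptor Esrra by 1.15 ± 0.07. Nrf1, which binds the most frequent of the 3 motifs in the member promoters, was lower (log2 fold change -1.44 ± 0.08 SE, adjusted p = 4.55e-08). The inhibitor of ATP synthase, Atpif1, had 86.6, 79.9 and 82.3 CPM in WT hippocampus, against 177, 159 and 175 CPM in WT MGE and 226, 224 and 239 CPM in WT cortex (-1.41 ± 0.06 against cortex, adjusted p = 8.40e-09). Between genotypes no gene of these 4 lists passed in any tissue, and the nearest was Idh2 in hippocampus (log2 fold change -0.30 ± 0.07 SE, adjusted p = 0.0591).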

How the data were processed

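RNA was measured in 18 poly(A)-selected libraries, 3 in each of 6 groups of tissue and Chd2 genotype. The authors deposited whole-number read counts per gene symbol, 24062 lines, not normalised. Per the submitters' processing notes, FastQC, Trimmomatic, TopHat2 2.1.1, SAMtools and DESeq2 were used with build mm10. How reads were counted, with which annotation and whether by strand, is not given in the sources used here, so reads of overlapping or antisense genes and near-identical copies may be split among lines. The share of each member's 50-base stretches found in other genes was therefore computed from GENCODE M21 transcripts.

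Each comparison of 2 groups was fitted on its own 6 libraries with edgeR 4.0.16 (R 4.3.3): TMM scaling, filterByExpr (minimum count 10, minimum total 15), a robust quasi-likelihood test and Benjamini-Hochberg adjustment over all genes tested, with 0.05 as threshold. Differences between genotype effects were contrasts in 1 fit of all 18 libraries. SE is the absolute log2 fold change over the square root of F. CPM values use TMM factors over all 18 libraries. TPM values use exon-union lengths from GENCODE M21. Classes of transcript length use the longest annotated transcript of each gene. The fits were also run on simulated counts, drawn independently for each gene and library. A shift shared by many genes of a library, as in cortex HET 1 and HET 2, was thus not covered. Groups do not overlap where every library of one lies above every library of the other. Alternatives tried were other scalings (RLE, upper quartile), all genes unfiltered, DESeq2 1.42.0, limma-voom (limma 3.58.1), 1 fit of all libraries, a replicate block, the Y-linked level as covariate, the longest transcript as length, and leaving out each library.

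The genes named were the 8 higher and 8 lower of largest change among called, non-overlapping members, or the 3 of lowest p on each side where none passed, plus isoform families, X-linked genes and complex II, and up to 4 genes of lowest p in each other list. Only some of these are described. The members and lists were chosen with earlier results of these data known. Libraries with the same replicate number did not deviate together (no comparison had every correlation over 0.1), so the numbers were not taken as pairs. Replicate libraries differed by more than sampling noise (chi-square per degree of freedom 5.79 to 101).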

Additional observations from a re-analysis of the deposited data

How the results depend on the processing

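No member was called between genotypes in hippocampus or MGE under any alternative run. In cortex, leaving out 1 library gave 0 to 50 called members, with 30.7% of all genes called at 50 (without HET 3). With cortex HET 3 as the one HET library, the members' median was 0.15. That choice was made after seeing the data and assumes that HET 3 varies like the WT libraries. The same choice gave medians of -0.38 for HET hippocampus against HET cortex and -0.47, with 36 called, for HET MGE against HET cortex. HET MGE against HET cortex called 11 members with DESeq2, 28 in 1 fit of all 18 libraries and 2 to 8 with 1 library left out. Of all genes, 25.9% were called in the main fit and 31.2% at 8 members (without cortex HET 3). The shares of all genes with DESeq2 and in the fit of 18 libraries are not given here, so those 2 counts cannot be set against them. Leaving out 1 library gave 0 to 15 calls for the genotype effect in MGE against that in cortex and 0 to 44 for cortex against hippocampus. At 15 and 44, each without cortex HET 3, 6.4% and 17.1% of all genes were called. The members' median in WT hippocampus against WT cortex was -0.38 with upper-quartile scaling, which moved the median of all genes to -0.10, and -0.31 in 1 fit of all libraries. In cortex HET against WT, Atp5k was 0.012 without HET 1 and HET 2, and Cox7b ran from -0.23 (without HET 3) to 0.37 (without WT 1) with 1 library left out, and was -0.17 with the Y-linked covariate. With longest transcripts as lengths, the members summed to 27927 TPM in HET and 26791 TPM in WT hippocampus, 23428 TPM in HET and 23120.2 TPM in WT MGE, and 26933 TPM in WT cortex. The causes were not tested. With the replicate number as a block, 48, 57, 6, 71, 61 and 63 members were called in the 6 tissue comparisons (HET hippocampus against cortex, against MGE, HET MGE against cortex, then the same in WT) and 0 in the others. The numbers do not pair the libraries, and the shares of all genes called with this block are not given here. Of all values of named members under alternatives, 1797 kept direction and side of the threshold, 114 lost the call, 6 gained it and 3 changed sign. Low counts limit the alternative isoforms: in hippocampus HET against WT the SE of the log2 fold change was 0.31 for Cox6a2 and 0.06 for Cox7b.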

Other observations

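Nuclear subunits and cytochrome c outside the symbol rule were set beside the members. Of these 5 genes, 1 was higher and 4 lower in WT hippocampus than in WT cortex, and 4 were lower in WT MGE than in WT cortex. Among 10 genes of outer membrane channels and import, 4 were higher and 4 lower in WT hippocampus than in WT cortex. Of 9 hypoxia response genes, 2 were higher and 4 lower there, where 41.1% of all genes were higher and 40.9% lower. In WT MGE against WT cortex, 6 of 16 glycolysis genes were lower and none higher, and 5 of 15 biogenesis regulators were higher and 1 lower, where 24.9% of all genes were higher and 24.5% lower.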
